A study of Mus musculus with 33 samples.

Results

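The 10 genes described here encode the machinery that loads peptides onto major histocompatibility complex (MHC) class I molecules. They were chosen by symbol from the deposited gene table, in which each of the 10 listed members was found, each on 1 row of 56414, and 36109 of those rows had reads. The mice were tumour-free C57Bl/6 animals that drank water with 0.5% nicotinamide (NAM, the amide of vitamin B3) for 1, 3 or 14 days, or received none, and poly-A RNA was sequenced from fresh organs. Libraries labelled spleen numbered 5 per group. Those labelled lymph node were fewer, with 3 from untreated mice and 2, 4 and 4 after 1, 3 and 14 days of NAM. No transgene is named in any label, and neither age, sex nor batch is given there.

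MHC class I molecules display fragments of a cell's own proteins to CD8 T cells, and their absence is sensed by natural killer cells. Cytosolic proteins are cut by the proteasome, whose inducible subunits replace constitutive ones in lymphoid cells and under interferon. The fragments are pumped into the endoplasmic reticulum by the TAP transporter, trimmed there, and fitted into a heavy chain paired with a shared light chain, beta-2-microglobulin. The activator NLRC5 drives transcription of many of these genes from a conserved promoter module. Lymphoid organs carry high levels of these transcripts at rest.

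H2-K1 (chromosome 17, 33996013 to 34000334 in mm10) and H2-D1 (chromosome 17, 35263026 to 35267497) encode the classical heavy chains, and B2m (chromosome 2, 122147685 to 122153083) encodes the light chain. Tap1 (chromosome 17, 34187552 to 34197225) and Tap2 (chromosome 17, 34204214 to 34216321) encode the transporter, and Tapbp (chromosome 17, 33919478 to 33929291) encodes tapasin, which bridges it to the heavy chain. Psmb8 (chromosome 17, 34198195 to 34201454) and Psmb9 (chromosome 17, 34181988 to 34187375) are catalytic subunits of the inducible proteasome. Erap1 (chromosome 13, 74639845 to 74692585) encodes the trimming peptidase. Nlrc5 (chromosome 8, 94472763 to 94527272) encodes the activator, and its row also carries Mir7072.

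Promoter sequence was read from a set of RefSeq promoters (GRCm38.p6, the mm10 assembly), in which 8 of the 10 members had an entry. Tap2 and Nlrc5 had none in the set used here. Letters were searched on both strands in the 250 bases before each start site. The sequences below are shown since H2-K1, H2-D1 and B2m carried the same pair of motifs at the same distance, TGACG followed by ATTGG 25 bases further on. Capitals mark GGGNNTTCC (NF-kB type), the reverse of GAANNGAAA (interferon response type), TGACG (CRE half-site) and the CCAAT box in either orientation.
H2-K1, chr17:34000334-34000468, minus strand: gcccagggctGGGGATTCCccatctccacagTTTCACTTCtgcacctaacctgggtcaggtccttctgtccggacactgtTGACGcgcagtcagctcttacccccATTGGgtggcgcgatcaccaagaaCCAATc
H2-D1, chr17:35262913-35263055, plus strand: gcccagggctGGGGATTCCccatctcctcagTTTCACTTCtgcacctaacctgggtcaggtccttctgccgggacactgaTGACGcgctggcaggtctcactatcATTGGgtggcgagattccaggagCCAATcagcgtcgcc
B2m, chr2:122147599-122147648, plus strand: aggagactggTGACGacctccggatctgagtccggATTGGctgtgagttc

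The spaced pair stood in 18 of 32851 RefSeq promoters (0.0548%), of which 3 gene symbols were members, and the spacing was chosen after these promoters had been read. Apart from that spacing, GGGNNTTCC, GAANNGAAA, TGACG and CCAAT started in this order, on either strand and at any distance, in 5 promoters (0.0152%). Among these were H2-K1 and H2-D1 but not B2m. Taken singly the letters were common. GGGNNTTCC stood in 4.98% of promoters, GAANNGAAA in 6.31%, TGACG in 17.8% and CCAAT in 33.8%, and TTCNNNGAA (GAS type), found in Psmb8 among the members, in 7.02%. A match describes letters in the window and says nothing about what is bound there. Only the exact letters were counted, and near forms, such as GAAACTGAAA in the B2m window, were not.

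Before any comparison, the tissue labels went against their defining markers in 33 of 33 libraries. Glycam1, the mucin that marks the high endothelial venules of lymph nodes, had 108167 to 214210 normalised counts in the 20 libraries labelled spleen, as compared to 1.59 to 12.4 in the 13 labelled lymph node. Spic, a factor of red pulp macrophages in the spleen, had 774 to 1295 and 6117 to 10491 respectively. The names "labelled spleen" and "labelled lymph node" are therefore used for the libraries, not for an organ. Depth was 18325061 to 54830743 reads per library, and the 5 labelled spleen at 3 days held at least 43632016 each. Replicate 1 at 3 days labelled spleen stood on the opposite side of the second principal component from the other 4 libraries of its group, and replicate 1 at 1 day labelled lymph node alone carried pancreas transcripts, so results that rest on either library are also given without it.

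Every member was deeply counted in every library. The values are reads divided by a size factor of the library (normalised read counts), and the 2 labels were scaled separately, so levels set across labels carry that limit. Over the 20 libraries labelled spleen, Nlrc5 spanned 1657 to 2427 and B2m 122636 to 196337. Over the 13 labelled lymph node, Nlrc5 spanned 1247 to 1762 and B2m 158771 to 208119. Counts grow with transcript length and are not compared between genes. Replicates differed moderately, with a median coefficient of variation over the 4 groups labelled spleen of 6.39% for Erap1 to 13.5% for Psmb9, and of 3.97% for H2-D1 to 12.1% for Tap2 under the lymph node label.

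**Figure D1:**
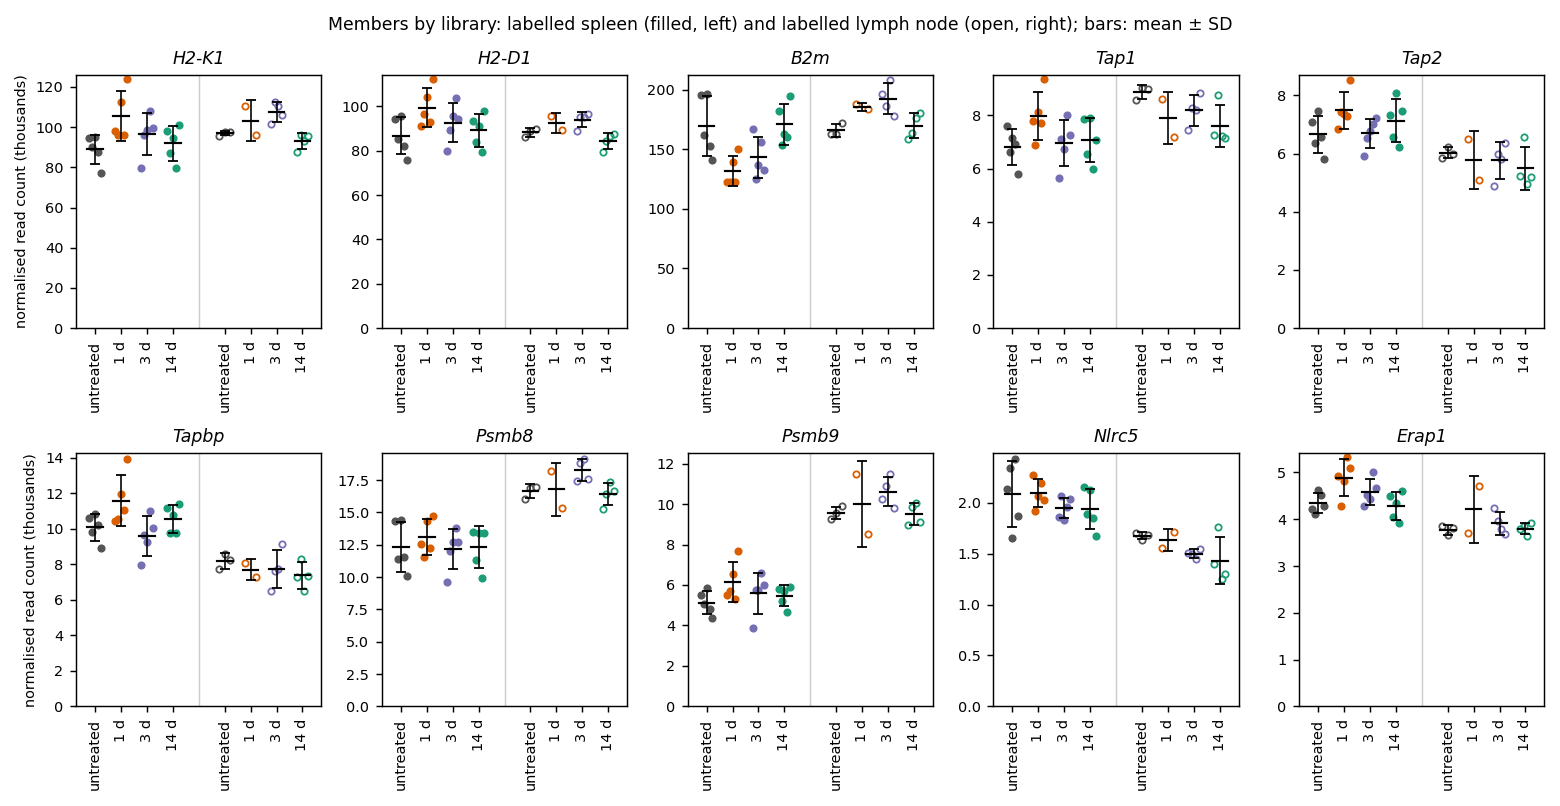
Normalised read count (linear axis) of each member in every library, by group, with black bars for the mean and SD; filled points are libraries labelled spleen and open points libraries labelled lymph node. H2-K1 at 1 day labelled spleen lay above all untreated libraries, whereas B2m there lay between 122636 and 149804 with 4 of 5 libraries below all untreated ones.

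The first comparison asked whether 1 day of NAM changed these transcripts in the libraries labelled spleen. None of the 10 members passed the adjusted threshold of 0.05 with limma fitted over all 18243 rows that reached a mean of 10 normalised counts, while 16.6% of those rows were called. With edgeR on the recovered reads 1 member was called, against 16.3% of rows, and with DESeq2 1, against 18.5%, B2m both times. At an unadjusted p under 0.05 there were 5 members (H2-K1, B2m, Tap1, Tapbp and Erap1), against 30.9% of all rows. In all, 9 of 10 fold changes were above 0 (8 of 10 after quantile normalisation or with library weights, where Nlrc5 turned), with a median of 0.18 on the log2 scale, as compared to 0.0054 over all rows, and B2m was the exception.

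H2-K1 counted 94676, 90374, 94962, 87474 and 77346 in the untreated libraries labelled spleen and 98187, 96328, 112462, 95865 and 123867 after 1 day. It was the only member whose 2 groups did not overlap, a separation also seen in 11.9% of rows. The log2 fold change was 0.24 ± 0.11 (SE), 1.18-fold, with a 95% interval of 0.018 to 0.46 and an adjusted p of 0.131. H2-D1, the other classical heavy chain, counted 94482, 85395, 95468, 82224 and 75860 untreated and 91161, 96339, 104251, 92704 and 112473 at 1 day. Here 3 of 5 treated libraries exceeded all untreated ones, and the change of 0.20 ± 0.10 had an adjusted p of 0.182.

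The estimate for the light chain had the opposite sign. B2m counted 195074, 161664, 196337, 152307 and 141306 in untreated libraries and 122636, 122775, 139458, 122714 and 149804 after 1 day. Of the 5 treated libraries 4 lay below all untreated ones, and the remaining one, replicate 5, lay within their range. The log2 fold change was -0.36 ± 0.12 (SE), 0.781-fold, with an interval of -0.61 to -0.10 and an adjusted p of 0.051, just outside the threshold. The adjusted p was 0.0296 with edgeR and 0.00687 with DESeq2. It was 0.0335 after quantile normalisation, where 16.7% of rows were called, 0.036 without untreated replicate 5 and 0.0354 without 1 day replicate 5. These 5 were the settings that called it out of 18, and in the others the adjusted p reached 0.127.

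The transporter and its partner lay slightly higher at 1 day. Tap1 counted 7603, 6644, 7139, 6924 and 5794 untreated and 7795, 6874, 8130, 7731 and 9356 at 1 day, so that 4 of 5 treated libraries exceeded every untreated one. Its change was 0.22 ± 0.10 on the log2 scale (adjusted p = 0.139), that of Tap2 0.17 ± 0.083 (0.169) and that of Tapbp 0.20 ± 0.090 (0.145). Erap1, the trimming enzyme, counted 4218, 4118, 4615, 4520 and 4273 untreated and 4929, 4280, 4818, 5327 and 5090 at 1 day, and 1 treated library, replicate 2, lay in the untreated range. Its change of 0.17 ± 0.065 had an adjusted p of 0.0857, which became 0.0269 without that replicate and was under 0.05 in 2 of 18 other settings, reaching 0.222.

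Of the inducible subunits, Psmb9 ranged from 4382 to 5842 untreated and from 5325 to 7687 at 1 day. Its change of 0.25 ± 0.13 (adjusted p = 0.176) was the highest estimate of the 10 members, with overlapping groups. Psmb8 and the activator differed less. Psmb8 ranged from 10077 to 14385 and from 11556 to 14750, a change of 0.089 ± 0.12 (adjusted p = 0.647). Nlrc5 counted 2138, 2342, 1657, 2427 and 1870 untreated and 2272, 1919, 2060, 2192 and 2022 at 1 day. All 5 treated values lay inside the untreated range, with a change of 0.016 ± 0.093 and an interval of -0.18 to 0.21.

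With library weights, which downweight libraries far from their group, 5 members passed at 1 day under the spleen label, H2-K1 (adjusted p = 0.0405), Tap1 (0.0275), Tapbp (0.0422), Psmb9 (0.0394) and Erap1 (0.0175), and B2m did not. Under that setting 21.6% of all rows were called. Transcripts of other cell types also moved in this comparison. Of the 7 rows of B cell markers 2 were called lower, both for the B cell factor Pax5 (-0.46 ± 0.12, adjusted p = 0.0115, and -0.47 ± 0.091, adjusted p = 0.00226), with a median log2 change of -0.17 and sums of 67242 to 85024 untreated and 53986 to 75699 at 1 day. The macrophage marker Cd68, the venule marker Madcam1 and the erythroid marker Hemgn were each the 1 row called lower in their lists, and Vcam1 of the red pulp list was called higher. The lists as a whole did not all go that way. The median log2 change was 0.078 for macrophage and monocyte markers, -0.093 for venule markers and 0.16 for the 3 erythroid rows tested. The 8 adipocyte markers summed to 32114 to 177880 normalised counts in untreated libraries labelled spleen and to 106531 to 455409 at 1 day, with a median log2 change of 0.98 and 1 of 8 called. The 6 neutrophil markers summed to 227 to 1186 and 605 to 10200, with 1 of 6 called. No B cell, adipocyte or neutrophil marker was at 0 in a whole group, and the part of these lists in the members' values was not tested. Fewer cells of a type and less RNA per cell cannot be told apart in such bulk RNA.

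**Figure D2:**
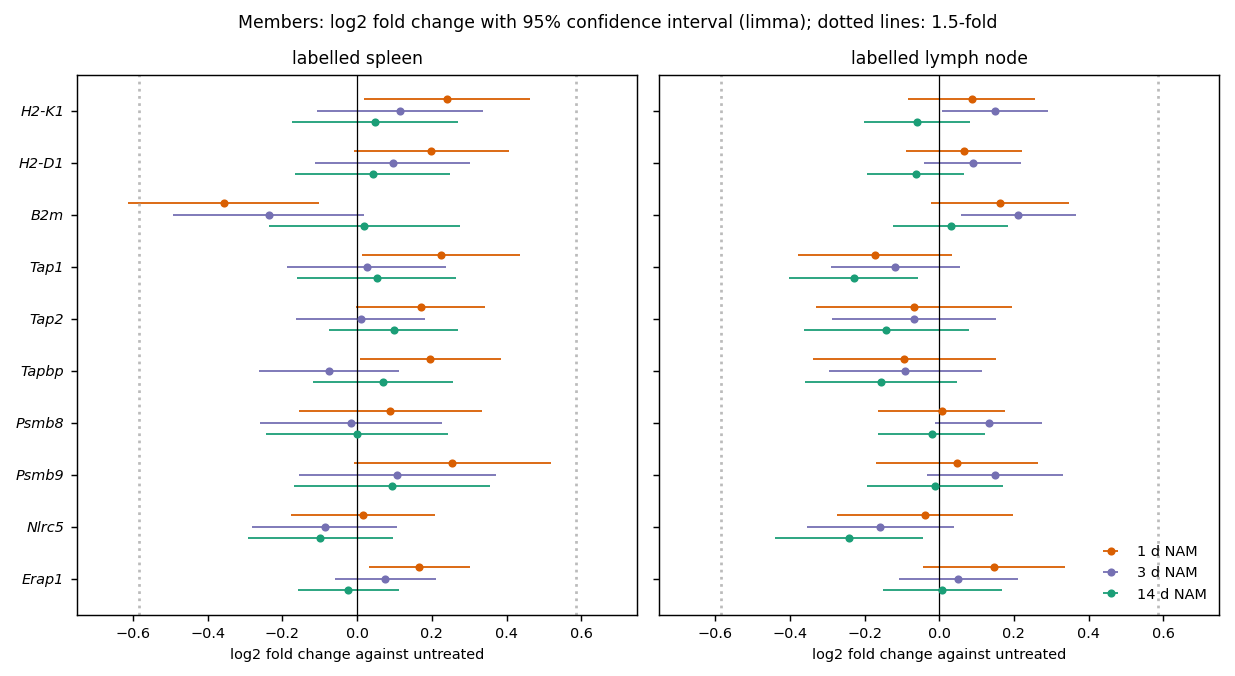
Log2 fold change of each member against untreated (points) with its 95% confidence interval (lines) at 1, 3 and 14 days, in libraries labelled spleen (left) and lymph node (right); dotted lines mark 1.5-fold. Every interval lay inside 1.5-fold except that of B2m at 1 day labelled spleen, which reached -0.61, and no member passed the adjusted threshold.

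After 3 days no member was called under the spleen label, either by limma, edgeR or DESeq2, and 0 had an unadjusted p under 0.05, against 21.96% of all rows. The calls covered 5.55% of all rows with limma, 5.94% with edgeR and 9.24% with DESeq2, and the groups of 0 members were separate as compared to 5.06% of rows. B2m again had the smallest adjusted p, at 0.269, with a change of -0.24 ± 0.12. It counted 166504 in replicate 1 and 124627, 136783, 155683 and 132667 in replicates 2 to 5, and 3 of these lay below all untreated libraries. H2-K1 counted 79811 in replicate 1 and 96274, 98780, 107883 and 99806 in the others, all 4 of which exceeded every untreated library, for a change of 0.11 ± 0.11. Without replicate 1 the change of B2m was -0.29 (adjusted p = 0.126), that of H2-K1 was 0.18 (0.276), that of Psmb9 was 0.24 (0.145), and no member was called, against 15.2% of rows. The 2 members with an unadjusted p under 0.05 were then B2m and Psmb9, against 27.9% of rows. After quantile normalisation 1 member, B2m, and 5.72% of rows were called. The fold changes of the 10 members ranged from -0.24 to 0.11 with a median of 0.018. In this comparison 2 of 6 dendritic cell markers were called lower, Clec9a (-0.47 ± 0.13, adjusted p = 0.0353) and Xcr1 (-0.44 ± 0.11, adjusted p = 0.0249), as were the macrophage marker Cd68 and the venule marker Madcam1, while Vcam1 was called higher. The median log2 change was 0.013 over the macrophage and monocyte markers and -0.12 over the venule markers. The 6 dendritic cell markers summed to 7080 to 9127 untreated and 7013 to 8576 at 3 days, and their part was not tested.

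After 14 days the libraries labelled spleen were close to untreated for every member. Limma, edgeR and DESeq2 called 0 members, 0 had an unadjusted p under 0.05 as compared to 2.80% of rows, and 0% of all rows were called by limma or edgeR and 1 row by DESeq2. The changes ranged from -0.098 (Nlrc5) to 0.098 (Tap2), and every 95% interval lay between -0.29 and 0.36, inside 1.5-fold. Groups did not overlap for 0 members and for 0.548% of rows. B2m counted 182031, 153500, 162995, 160262 and 194678, a change of 0.019 ± 0.12.

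The durations were also compared directly. Between 1 and 14 days under the spleen label, B2m was lower at 1 day, with a log2 difference of -0.38 (interval -0.63 to -0.12, adjusted p = 0.0542) and all 5 libraries below those at 14 days, and Erap1 was higher by 0.19 (adjusted p = 0.0657). Limma called neither, against 10.6% of rows, and 2 members had an unadjusted p under 0.05, against 25.7% of rows. edgeR called 1 member (B2m, adjusted p = 0.0379) and 10.7% of rows, and DESeq2 called 2 (B2m, 0.00747, and Erap1, 0.0454) and 12.4% of rows. From 1 to 3 days 0 members were called, against 0.00548% of rows, with 1 at an unadjusted p under 0.05 (6.98% of rows), Tapbp, which was higher at 1 day by 0.27 (adjusted p = 0.509). From 3 to 14 days 0 were called by limma, edgeR or DESeq2, 0 at an unadjusted p (16.7% of rows), and 1.05% of rows were called with limma, 1.67% with edgeR and 4.59% with DESeq2. When replicate 1 at 3 days was left out, 0 members were called in both comparisons with 3 days, where 11.8% of rows were called between 3 and 14 days, and the difference of B2m at 3 from 14 days was then -0.31 (adjusted p = 0.122), and 1 member had an unadjusted p under 0.05 in each, against 6.92% of rows for 1 to 3 days and 24.1% for 3 to 14 days. With library weights 2 members were called between 1 and 14 days, against 13.9% of rows, and 1 between 3 and 14 days, against 17.2%. Quantile normalisation called B2m in both, against 10.9% and 1.37% of rows. Cell type markers also differed between 1 and 14 days. At 1 day 2 of 7 B cell rows were called lower, 2 of 4 red pulp markers higher, and of 6 macrophage and monocyte markers 1 higher and 1 lower. The part of these lists was not tested. The comparisons between durations share libraries with those against untreated.

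H2-K1 and B2m, partners in one complex, were next set against each other within each library, which cancels the library's size factor. This ratio was chosen after the values had been seen and is given without a test. In untreated libraries labelled spleen the log2 ratio of H2-K1 to B2m was -1.04, -0.84, -1.05, -0.80 and -0.87. At 1 day it was -0.32, -0.35, -0.31, -0.36 and -0.27, above every untreated value. At 3 days it was -1.06 in replicate 1 and -0.37, -0.47, -0.53 and -0.41 in the others, and at 14 days it was -0.89, -0.82, -0.78, -1.01 and -0.95. The 13 libraries labelled lymph node spanned -0.95 to -0.73 whatever their treatment. The mean was -0.92 ± 0.12 (SD, n = 5) in untreated libraries and -0.32 ± 0.033 after 1 day, and it was -0.57 ± 0.28 and -0.89 ± 0.091 after 3 and 14 days.

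Of the 9 ratios of a member to B2m, 8 were higher in every 1 day library than in every untreated one under the spleen label, Nlrc5 being the exception. A ratio to B2m rose in this way for 23.6% of all other rows. H2-D1 to B2m went from -1.05 to -0.89 in untreated libraries to -0.43 to -0.35 at 1 day. The ratio of the heavy chains to each other barely moved, at 0.039 ± 0.045 untreated and 0.081 ± 0.056 at 1 day. The H2-K1 to B2m ratio divided the 20 libraries exactly as the second principal component of all tested rows did, which held 13.6% of the variance. That component was computed from these same rows, both genes included. How many other ratios divided the libraries in this way was not counted, so the match is not particular to these genes. The 9 libraries on one side, the 5 at 1 day and replicates 2 to 5 at 3 days, had ratios of -0.53 to -0.27, and the 11 on the other had -1.06 to -0.78. The labels give no batch or date, so that a batch that took in these libraries and 1 day of NAM cannot be told apart.

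**Figure D3:**
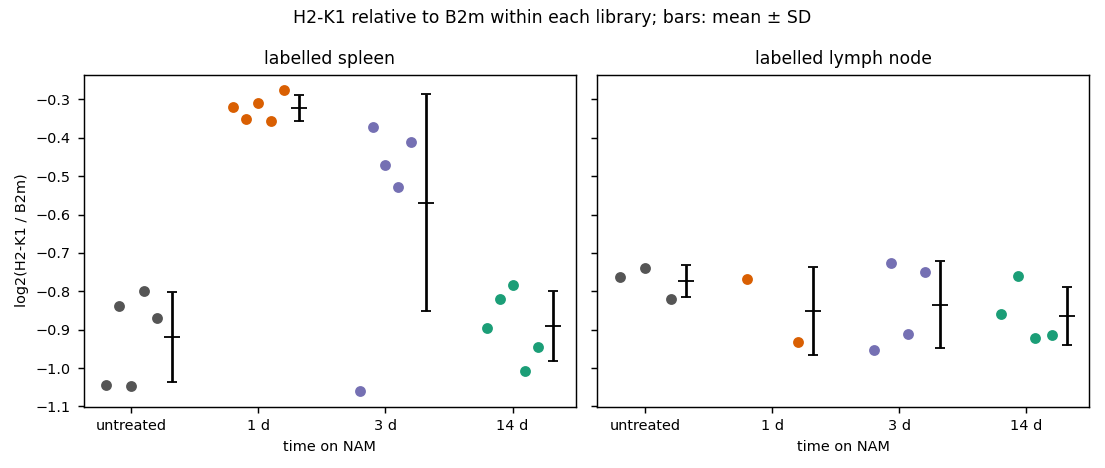
Log2 ratio of H2-K1 to B2m normalised counts within each library (points) with group mean and SD (black bars), by time on NAM and tissue label. At 1 day labelled spleen the 5 libraries lay between -0.36 and -0.27, replicate 1 at 3 days lay with the untreated libraries at -1.06, and the libraries labelled lymph node stayed between -0.95 and -0.73.

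In the libraries labelled lymph node no member was called at any duration by limma or edgeR, and edgeR called 1.22%, 1.13% and 0.878% of rows at 1, 3 and 14 days. At 1 day, with 2 treated libraries, 0 members had an unadjusted p under 0.05 as compared to 14.97% of rows, DESeq2 called 0 and 2.96% of rows, and limma called 1.21% of the 18215 rows. B2m counted 162392, 163002 and 172329 untreated and 188134 and 183337 at 1 day, a change of 0.16 ± 0.087 (adjusted p = 0.398). It was the only member whose groups were separate, as they were for 32.6% of rows. Tap1 changed by -0.17 ± 0.098 (adjusted p = 0.434). Replicate 1 carried 104339 normalised counts of the 8 exocrine pancreas markers, against 14.3 to 24.3 in the other libraries of this label. Without it, the sign turned for H2-K1 (-0.013), Psmb8 (-0.12), Psmb9 (-0.17) and Nlrc5 (0.030), and 0 members were called, against 0.379% of rows, while 2 had an unadjusted p under 0.05, Tap1 (-0.30) and Erap1 (0.32), against 12.8% of rows. Quantile normalisation turned the sign of H2-K1, H2-D1, Psmb8 and Psmb9 and left 2 of 10 changes above 0. The 6 neutrophil markers, with 0 called, summed to 12351 to 23145 untreated and 25556 to 34453 at 1 day. Of the 6 macrophage and monocyte markers 1 was called higher, with a median of 0.29. Their sums were 178081 to 184430 untreated and 209616 to 233422 at 1 day. The 6 T cell markers, with 0 called, summed to 27534.7 to 29271.3 and 31428.5 to 33866.3. The part of these lists was not tested.

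After 3 days under the lymph node label, limma called 0 members and 1.24% of rows, and 2 members, H2-K1 and B2m, had an unadjusted p under 0.05, against 14.8% of rows. B2m counted 196196, 186576, 208119 and 178232 against the 3 untreated values above, each treated library being higher. Its change was 0.21 ± 0.073 (interval 0.057 to 0.36, adjusted p = 0.185), and DESeq2, which called 2.71% of rows, gave an adjusted p of 0.0495. H2-K1 counted 95797, 97699 and 97601 untreated and 101420, 112688, 110612 and 105997 at 3 days, a change of 0.15 ± 0.067 (adjusted p = 0.313). The groups of 4 members did not overlap, with H2-K1, B2m and Psmb8 higher and Nlrc5 lower, against 15.3% of all rows. Nlrc5 counted 1704, 1638 and 1680 untreated and 1510, 1498, 1445 and 1548 at 3 days, a change of -0.16 ± 0.094 (adjusted p = 0.452). In this comparison 8 of 8 erythroid markers were called lower and their sum went from 21240 to 31937 in untreated to 2263 to 12039 normalised counts. Of the 6 macrophage and monocyte markers 1 was called higher, with a median of 0.15 and sums of 195682 to 223616 at 3 days, against 178081 to 184430 untreated. The part of both lists in the members' values was not tested.

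After 14 days under the lymph node label 0 members and 0.791% of rows were called by limma, DESeq2 called 0 members and 2.09% of rows, and 8 of 10 changes were below 0 (9 of 10 after quantile normalisation, 7 of 10 with the replicate number as a block). Tap1 and Nlrc5 had an unadjusted p under 0.05, against 11.8% of rows. Tap1 counted 8566, 9052 and 9009 untreated and 7264, 8772, 7223 and 7136 at 14 days, and replicate 2 alone lay in the untreated range. The change was -0.23 ± 0.082 (interval -0.40 to -0.056, adjusted p = 0.251). Nlrc5 counted 1402, 1762, 1247 and 1302, with replicate 2 above all untreated libraries and the other 3 below them. Its change was -0.24 ± 0.094 (adjusted p = 0.299), and without replicate 2 it was -0.35 with an adjusted p of 0.0326, its 1 call in 15 other settings, where 0.873% of rows were called. Groups did not overlap for 0 members and for 11.5% of rows, and the sum of the erythroid markers was 9390 to 14160. Of these 8 markers 2 were called lower, Ermap (-2.43 ± 0.42, adjusted p = 0.0115) and Klf1 (-2.14 ± 0.48, adjusted p = 0.0486). Of the 4 red pulp markers Hmox1 was called lower (-0.79 ± 0.16, adjusted p = 0.0304), with a median of -0.41 and sums of 70643 to 81055 untreated and 41969 to 62398 at 14 days. Their part was not tested.

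Between durations under the lymph node label, limma, edgeR and DESeq2 called 0 members each time. The calls over all rows were 0.357% from 1 to 3 days, 0.401% from 1 to 14 days and 0.011% from 3 to 14 days with limma. They were 0.423%, 0.587% and 0.00549% with edgeR, and 1.005%, 2.11% and 0.28% with DESeq2. At an unadjusted p under 0.05 there were 0, 0 and 4 members, the last being H2-K1, H2-D1, B2m and Psmb8, each higher at 3 than at 14 days. The shares of all rows at that threshold were 7.75%, 12.8% and 5.84%. Without the 1 day replicate that carried pancreas transcripts 0 members were called in the 2 comparisons with 1 day, against 0.132% of rows for 3 days and 0.11% for 14 days. At an unadjusted p under 0.05 there were then 3 members (Psmb8, Psmb9 and Erap1, against 9.70% of rows) and 1 (Erap1, against 10.9%). Every one of the 10 members had a higher mean at 3 than at 14 days, by 0.043 to 0.21 on the log2 scale, and H2-K1 by 0.21 (interval 0.078 to 0.34, adjusted p = 0.515). The same held for 1 against 14 days, by 0.027 to 0.20, but without the 1 day replicate named above only 5 of 10 were higher. With all libraries, Tap1 (-0.0048), Psmb8 (-0.067) and Psmb9 (-0.018) each turned sign in 1 of 7 other settings. Over all rows 49.7% and 50.9% of the differences were above 0, and the medians over the members were 0.13 and 0.10. Of the cell type markers, 3 of 6 for neutrophils and 1 of 6 for macrophages and monocytes were called higher at 1 than at 14 days. Their part was not tested here.

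The B2m changes at 1 and 3 days had opposite signs under the labels, though B2m passed limma under neither, and at 14 days both were above 0 (0.019 and 0.031). The difference itself was tested in a fit of all 33 libraries over 17147 rows. The 1 day change of B2m was lower under the spleen label than under the lymph node label, with a difference of -0.52 ± 0.18 (interval -0.89 to -0.15, adjusted p = 0.119), and so was the 3 day change, at -0.45 ± 0.16 (adjusted p = 0.19; 0.0116 with library weights, where 11.3% of rows were called). Tap1 differed by 0.40 ± 0.16 at 1 day (adjusted p = 0.198). Without replicate 1 at 1 day labelled lymph node the 1 day difference was -0.50 for B2m (adjusted p = 0.286) and 0.52 for Tap1 (0.202). Without replicate 1 at 3 days labelled spleen the 3 day difference of B2m was -0.50 (adjusted p = 0.0561), and 0 members passed in either case, against 0.338% and 5.15% of rows, with 3 and 1 at an unadjusted p under 0.05, against 14.4% and 18.1%. No member passed at 1, 3 or 14 days with limma or edgeR, with 2, 1 and 0 members at an unadjusted p under 0.05, as compared to 17.1%, 13.1% and 4.85% of rows. Adjusted calls covered 1.69% of rows at 1 day, 0.735% at 3 days and 0.14% at 14 days. This fit takes no account of libraries that may come from one mouse.

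A ratio within a library can be set across labels, since the scaling cancels. The log2 ratio of Tap1 to Tap2 was -0.11 to 0.20 in the 20 libraries labelled spleen and 0.41 to 0.60 in the 13 labelled lymph node. The ranges did not overlap, which held for 33.3% of other rows set against Tap2. The log2 ratio of Psmb9 to Psmb6, the constitutive subunit that it replaces, was -0.36 to 0.39 and 0.37 to 0.79, so that the ranges met at their ends. These ratios are not corrected for transcript length, and only their differences between libraries are meant.

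The rest of the pathway was followed in 5 lists of 47 genes, of which 45 rows passed the filter. After 1 day under the spleen label 12 of the 45 (26.7%) were called, all higher, where 8.56% of all rows were called higher. After quantile normalisation 11 were higher and 6 lower, and over 18 other settings 9 to 17 were called. Class I and class I-like heavy chains beyond the members gave 4 of 11 rows higher, Cd1d1 and Fcgrt of the class I-like kind among them. The row shared by H2-T10 and H2-T22, ligands of gamma-delta T cells, rose from 6498 ± 377 to 8088 ± 478 normalised counts (SD, n = 5 each), a change of 0.32 ± 0.082 (adjusted p = 0.0125). H2-T23, which presents to natural killer receptors, rose by 0.34 ± 0.11 (adjusted p = 0.048), a call made in 7 of 18 other settings. Cd1d1, which presents lipids to natural killer T cells, rose by 0.84 ± 0.24 (adjusted p = 0.0233), and Fcgrt, the neonatal Fc receptor chain, by 0.59 ± 0.17 (0.0217), both chosen after their values were seen and called in 14 and 16 of 18 other settings. H2-Q7, a nonclassical heavy chain, changed by -0.062 ± 0.11 (adjusted p = 0.727).

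Of 4 rows listed with the inducible proteasome beyond the members 2 were called, neither of them a catalytic subunit, and 2 of 3 constitutive catalytic subunits were. Psme2, a subunit of the PA28 activator, rose from 2071 ± 326 to 3141 ± 494, by 0.60 ± 0.16 (adjusted p = 0.0125), and Pomp, the assembly chaperone, rose from 3561 ± 372 to 5250 ± 621, by 0.56 ± 0.11 (adjusted p = 0.00244). Psme1, the partner of Psme2, changed by 0.18 ± 0.12 (adjusted p = 0.328), and Psmb10, the remaining inducible subunit, by 0.16 ± 0.11 (adjusted p = 0.349). Of the constitutive subunits, Psmb5, which Psmb8 replaces, rose from 1720 ± 154 to 2750 ± 395, by 0.67 ± 0.14 (adjusted p = 0.00303). Psmb7, which Psmb10 replaces, rose by 0.25 ± 0.079 (adjusted p = 0.0322), called in 11 of 18 other settings. Psmb6 changed by -0.12 ± 0.070 (adjusted p = 0.254). The log2 ratio of Psmb8 to Psmb5 was 2.84 ± 0.17 untreated and 2.25 ± 0.26 at 1 day (SD, n = 5 each).

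Among loading and trimming partners 2 of 10 rows rose, the chaperone Hspa5 (0.44 ± 0.11, adjusted p = 0.0131) and the cytosolic peptidase Npepps (0.28 ± 0.077, 0.017). Tapbpl, a tapasin relative, changed by 0.21 ± 0.10 (adjusted p = 0.177). Among the regulators, Ifngr1, a chain of the interferon-gamma receptor, rose from 2483 ± 190 to 3454 ± 191, by 0.48 ± 0.076 (adjusted p = 0.000739). Irf1, an interferon-induced factor, changed by 0.044 ± 0.11 (adjusted p = 0.825).

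**Figure D4:**
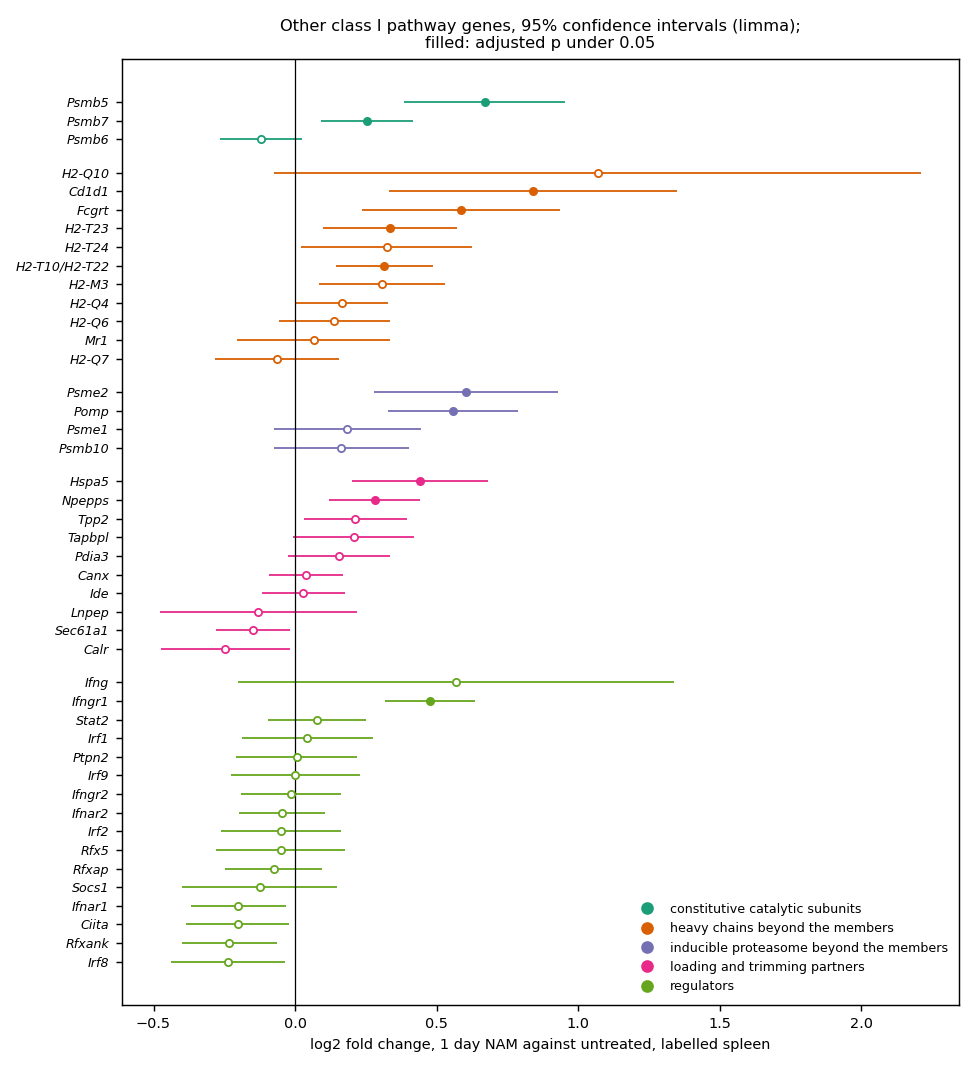
Log2 fold change at 1 day against untreated in libraries labelled spleen for 44 rows of 5 class I pathway lists (points, coloured by list) with 95% confidence intervals (lines); filled points have an adjusted p under 0.05. Filled points stand to the right of 0, with Cd1d1 at 0.84 and Psmb5 at 0.67.

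Between 1 and 14 days under the spleen label 7 of the 45 (15.6%) were called, all higher at 1 day, where 10.6% of all rows were called. They were the row of H2-T10 and H2-T22 (0.28, adjusted p = 0.0321), Hspa5 (0.48, 0.0125), Npepps (0.32, 0.012), Pomp (0.50, 0.00827), Psme2 (0.59, 0.0205), Psmb5 (0.55, 0.015) and Ifngr1 (0.47, 0.00192). After quantile normalisation 9 were called, of which only 7 were higher at 1 day, where 10.9% of all rows were called. After 3 days against untreated 2 (4.44%) were called, as compared to 5.55% of all rows, and 0 to 13 were called over 18 other settings. Ifngr1 rose (0.36 ± 0.076, adjusted p = 0.0133), a call made in 16 of 18 other settings. Irf8, a factor of myeloid and B cells, fell (-0.33 ± 0.097, adjusted p = 0.0492), a call made in 6 of 18 with an adjusted p of up to 0.14, beside the dendritic cell markers named above. Without replicate 1 there were 8 of 45, of which 6 were higher, where 15.2% of all rows were called. Between 1 and 3 days 0 were called, against 0.00548% of all rows. Between 3 and 14 days 1 was, Ifngr1 (0.36 higher at 3 days, adjusted p = 0.0378), against 1.05% of all rows. Without replicate 1 at 3 days there were 7, of which 5 were higher at 3 days, where 11.8% of all rows were called. After 14 days 0 of 45 were called by limma, edgeR or DESeq2, and 0 had an unadjusted p under 0.05. Under the lymph node label 2 (4.44%) rose after 1 day, where 1.21% of all rows were called. These were H2-Q10, a secreted heavy chain (1.09 ± 0.23, adjusted p = 0.0259), and Hspa5 (0.35 ± 0.083, adjusted p = 0.0486). These calls were made in 8 and 4 of 13 other settings, and without replicate 1, which carried pancreas transcripts, the adjusted p was 0.109 for H2-Q10 and 0.209 for Hspa5. After 3 days 0 were called by limma or edgeR and 1 by DESeq2, which called 2.71% of all rows. At an unadjusted p under 0.05 there were 10 of 45, against 14.8% of all rows.

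The members were then followed across libraries within groups, as deviations from each group's mean of log2 values. Nlrc5 was set against the other 9 members under each label, 18 relations in all. Pearson's r ran from -0.34 (B2m, Spearman's rho -0.30, permutation p 0.239 and 0.285) to 0.30 (Tap1, rho 0.33, permutation p 0.213 and 0.18) over 20 libraries labelled spleen. Over 13 labelled lymph node it ran from -0.52 (B2m, rho -0.61, permutation p 0.112 and 0.0361) to 0.51 (Tap1, rho 0.15, permutation p 0.209 and 0.709). None of the 18 passed after Benjamini-Hochberg adjustment, the smallest adjusted permutation p being 0.556 for r and 0.623 for rho. Leaving out the 2 libraries farthest from the Nlrc5 median, replicates 2 and 3 at 14 days, took r with Tap1 from 0.51 to -0.15 under the lymph node label, so that it rested on those libraries. It also took r with H2-K1 from -0.067 to -0.64, with Psmb8 from -0.39 to -0.67 and with Psmb9 from -0.21 to -0.57. Without replicate 1 at 3 days labelled spleen and both 1 day libraries labelled lymph node none passed either, with a smallest adjusted permutation p of 0.618, and r under the lymph node label was 0.75 for Tap1 and 0.71 for Tap2.

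H2-K1 was set against the other members but Nlrc5 in 16 relations that were added after the values had been seen, of which 7 of 8 passed for r under the spleen label and 2 of 8 under the lymph node label. Over the 20 libraries labelled spleen r was 0.96 with Psmb9 (rho 0.96), 0.96 with H2-D1 (rho 0.96), 0.945 with Tapbp (rho 0.94), 0.93 with Psmb8 (rho 0.90) and 0.90 with Tap1 (rho 0.85), each with an adjusted permutation p of 3.2e-05 for r. These rest on a permutation p of 1e-05, the smallest that 100000 draws can give. Of all 18233 other rows, 0.461% had an r with H2-K1 as high as that of Tap1, 2.5% as high as that of Tap2 and 17% as high as that of Erap1, and 2 rows reached that of H2-D1. With Tap2 r was 0.84 (rho 0.81, adjusted permutation p 0.000107) and with Erap1 0.56 (rho 0.60, 0.0423). With B2m r was 0.49 (rho 0.53, adjusted permutation p 0.0595), and without replicate 1 at 3 days it was 0.85 (5.33e-05), whereas Erap1 fell to 0.51 (0.106). Leaving out the 2 libraries farthest from the H2-K1 median kept r between 0.78 and 0.96 for the other 6 members, with 0.43 for Erap1 and 0.82 for B2m.

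Under the lymph node label the relations that passed were those with Psmb8 (r = 0.88, rho 0.77, adjusted permutation p 0.0423 and 0.0965) and H2-D1 (r = 0.81, rho 0.58, 0.0423 and 0.195), values reached by 0.148% and 0.659% of 18205 other rows. Leaving out the 2 libraries farthest from the H2-K1 median gave 0.78 and 0.69. Without the 1 day libraries these were 0.78 and 0.775, each with an adjusted permutation p of 0.0775, and 0 of 8 passed. Erap1 ran against H2-K1 with r = -0.62 (adjusted permutation p 0.34) and at -0.21 without the 1 day libraries. Depth moved with some members under this label, where r with log2 reads was 0.75 for Tap2, 0.71 for Tapbp, 0.68 for Tap1 and -0.66 for Erap1 over 13 libraries. These were 0.65, 0.73, 0.54 and -0.355 in turn without replicate 1 at 1 day, B2m stood at -0.62, and the part of depth was not tested. Under the spleen label r with log2 reads was between -0.46 and -0.054, and between -0.49 and -0.053 without replicate 1 at 3 days.

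**Figure D5:**
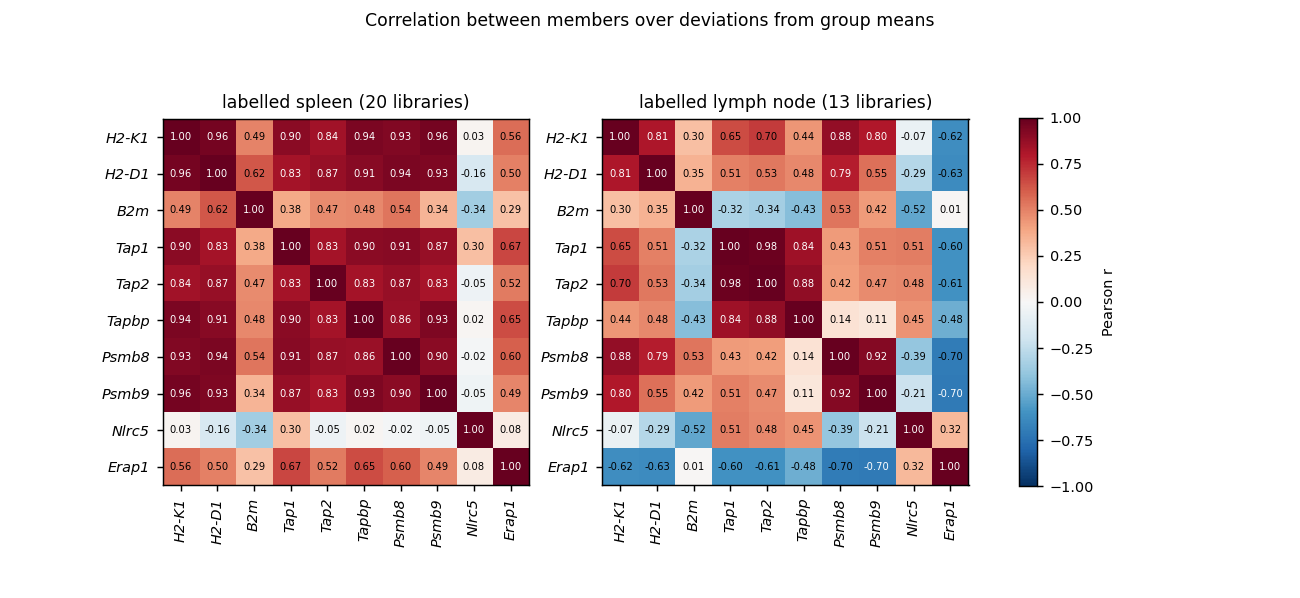
Pearson's r between members over deviations of log2 normalised counts from group means, in 20 libraries labelled spleen (left) and 13 labelled lymph node (right); colour runs from -1 (blue) to 1 (red). In the left panel H2-K1, H2-D1, Tap1, Tap2, Tapbp, Psmb8 and Psmb9 form a block, with r of 0.84 to 0.96 with H2-K1, while Nlrc5 is pale.

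By the same measure, the rows most like H2-K1 in libraries labelled spleen, outside the members, were Psmb10 (r = 0.975), H2-T23 (0.969) and Usf1 (0.958). Those most like Nlrc5 were Gbp4 (0.819), the row shared by Mpv17 and Gtf3c2 (0.818) and Ddx60 (0.813). Under the lymph node label they were Psmc4 (0.952), Mdh2 (0.951) and Dcaf12 (0.938) for H2-K1, and Tox (0.924), Snord32a (0.908) and Xist (0.905) for Nlrc5. Without replicate 1 at 3 days the 3 rows for H2-K1 under the spleen label were again Psmb10, H2-T23 and Usf1 (0.966, 0.962 and 0.948), while those for Nlrc5 were Dmtf1 (0.867), the row of Mpv17 and Gtf3c2 (0.865) and Mllt10 (0.863). Without replicate 1 at 1 day under the lymph node label they were Dcaf12 (0.964), Cdc42ep3 (0.943) and Cand1 (0.940) for H2-K1, and Ddx19b (0.949), Bcorl1 (0.942) and Cipc (0.926) for Nlrc5. These are the highest of all tested rows over 20 and 13 libraries, or 19 and 12, and carry no test.

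Some counts cannot be assigned to one gene with certainty. Of the 75-base windows of its transcript, H2-D1 shared 6.9% with other genes, H2-K1 1.55% and Tapbp 0.992%, and the other members 0%. Exons overlap a gene on the opposite strand for Tap1 (Psmb9, 212 bases), Tapbp (Gm19412, 758), Psmb8 (Gm20496, 498), Tap2 (Gm15821, 533, and Gm20496, 140) and Erap1 (Cast, 218), and use of strand in the counting is not stated.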

How the data were processed

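The authors deposited a table of normalised counts, a signal in which reads per gene are divided by a DESeq2 size factor, aligned to mm10 per the labels. The submitters' processing notes name STAR 2.4.0, SAMtools, Picard, FastQC and DESeq2, without their order. Whole reads were recovered from the steps in each library for 100% of values (tolerance 0.05), giving 18325061 to 54830743 reads per library. Per-library columns left unmapped numbered 0.

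Within each label, log2(normalised count + 1) of rows with a mean of at least 10 was fitted with limma 3.58.1 (R 4.3.3; intensity trend, 4 groups, two-sided, Benjamini-Hochberg adjustment over all rows, threshold 0.05). Fold changes on this scale understate changes of low genes. Nothing in the labels says that replicates are separate animals, so p-values measure the spread between these libraries. Alternatives were a pseudocount of 5, no filter, quantile normalisation, only the 2 groups compared, weights per library, a block for replicate number, leaving out each replicate, a rule of 1.5-fold with an unadjusted p up to 0.05, edgeR 4.0.16 and DESeq2 1.42.0. Correlations used 100000 two-sided permutations within groups (numpy 2.4.6, Python 3.11.15). Tested on simulated data for 1 day against untreated, with 200 rows changed, the limma fit recovered 37% of 1.5-fold and 72% of 2-fold changes over 18243 rows labelled spleen, and 28% and 69.5% over 18215 rows labelled lymph node, with 2.7% to 6.33% of calls false. The 200 rows were drawn over all levels, whereas 16.6% of real rows were called at 1 day labelled spleen. These rates therefore do not give the power for the deeply counted members. All members, and from the pathway lists 11 set genes (1 of which is not reported here) and the gene with the smallest adjusted p in each direction, are named, as are the 3 rows most like H2-K1 and Nlrc5. Members and lists were chosen with earlier results of these data known.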

Additional observations from a re-analysis of the deposited data

Results flagged for a closer look

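Over the members and the H2-K1 to B2m ratio, 66 sets of 4 or 5 libraries were searched for 1 library whose gap to the others took most of the set's range (Dixon's test at 95%, which chance alone passes in about 1 of 20 sets), and 3 passed. Tap1 in replicate 2 at 14 days labelled lymph node counted 8772, while the other 3 libraries of that group counted 7136 to 7264. Tap2 in the same library counted 6574, as compared to 4967 to 5211 in the others. The log2 ratio of H2-K1 to B2m in replicate 1 at 3 days labelled spleen was -1.06, while that of the other 4 libraries was -0.53 to -0.37.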

How the results depend on the processing

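No member passed limma in any of the 15 comparisons, and a pseudocount of 5, no filter, only the 2 groups compared, the 1.5-fold rule and the replicate block left 0 wherever they were run. Labelled spleen at 1 day, 1 member passed after quantile normalisation (16.7% of all rows), 1 with edgeR, 1 with DESeq2 and 5 with library weights, and leaving out 1 library gave 0 to 1 (B2m without untreated replicate 5, with 12.9% of rows, or 1 day replicate 5, with 15.6%, and Erap1 without 1 day replicate 2, with 13.8%). Quantile normalisation gave 1 (B2m) at 3 days, with 5.72% of rows. Between 1 and 14 days it gave 1 (10.9% of rows), edgeR 1, library weights 2 and DESeq2 2, and between 3 and 14 days quantile normalisation (1.37% of rows) and library weights gave 1 each, where both settings were added after seeing the data. Labelled lymph node, DESeq2 gave 1 at 3 days (B2m), and leaving out 1 library gave 0 to 1 at 14 days (Nlrc5 without replicate 2). Library weights gave 1 for the difference between labels at 3 days (B2m). The causes of these differences were not tested.

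Of 1030 alternative fold changes for the 60 from untreated, 52 turned sign, in 21 of the 60, and 964 kept sign and side of the threshold. The 1030 include settings whose fold changes equal the main ones, so that no sign could turn there. These were no filter, only the 2 groups compared and the 1.5-fold rule, and labelled spleen also the replicate block. Quantile normalisation turned Nlrc5 at 1 day (-0.034) and H2-K1 (-0.034) and H2-D1 (-0.039) at 14 days labelled spleen, and H2-K1 (-0.019), H2-D1 (-0.053), Psmb8 (-0.12) and Psmb9 (-0.036) at 1 day and Erap1 (-0.010) at 14 days labelled lymph node. Library weights turned Nlrc5 at 1 day (-0.029) and Psmb8 at 3 (0.10) and 14 days (0.073) labelled spleen. Leaving out 1 library in turn, and labelled spleen, the change spanned -0.064 to 0.074 for Nlrc5 at 1 day. At 3 days it spanned -0.032 to 0.098 for Tap1, -0.038 to 0.052 for Tap2 and -0.087 to 0.064 for Psmb8. At 14 days it spanned -0.0013 to 0.099 for H2-K1, -0.0054 to 0.082 for H2-D1, -0.044 to 0.075 for B2m, -0.0047 to 0.11 for Tap1, -0.070 to 0.074 for Psmb8 and -0.050 to 0.0078 for Erap1. Labelled lymph node at 1 day, where a lone treated library is assumed to vary like the other groups, it spanned -0.013 to 0.19 for H2-K1, -0.24 to 0.11 for Tap2, -0.12 to 0.13 for Psmb8, -0.17 to 0.27 for Psmb9, -0.11 to 0.030 for Nlrc5 and -0.029 to 0.32 for Erap1. At 3 days it spanned -0.12 to 0.0084 for Tap2, and at 14 days -0.047 to 0.013 for Psmb8, -0.041 to 0.016 for Psmb9 and -0.015 to 0.029 for Erap1.

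Deviations of libraries with the same replicate number correlated at -0.496 to 0.468 over 30 pairs labelled spleen and -0.107 to 0.079 over 16 labelled lymph node, so the numbers were not taken to pair the libraries. With the replicate number as a block 0 members were called in each of the 12 comparisons within a label, and Psmb9 at 14 days labelled lymph node turned to 0.015.

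The tissue labels go against the markers, no batch is given, separate animals are not stated, and only 2 libraries were labelled lymph node at 1 day.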
